A study of Mus musculus with 136 samples.

Results

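Chromatin-associated RNA was compared between Nfkbiz-/- and wild-type mouse bone marrow-derived macrophages (BMDM) after 1 h of lipid A, with 2 libraries per genotype. Of the 15196 genes of the deposited table, the 3049 with at least 1 RPKM in 2 or more of these 4 libraries were described. RPKM is reads per kilobase of gene, scaled to the reads of the library, and the filter did not use genotype. Just inside the filter, the second highest of the 4 values was 1.0005 RPKM for Abcb4, and just outside it was 0.99986 RPKM for Rnf141.

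The knockout libraries came from macrophages labelled Nfkbiz-/- and the others from the wild type of the same series, which the labels call C57/B16. Both were grown from bone marrow for 6 days with M-CSF and given lipid A for 1 h, and RNA was taken from the chromatin fraction, which is rich in RNA still being transcribed. The labels do not say that the 2 replicates of a group came from separate animals. The p-values thus measure the spread between replicate libraries, which may be technical. For the 1 h comparison that spread was estimated over all 20 libraries of the Nfkbiz series, not from the 4 compared alone. The study's 136 libraries also cover lipid A courses of Nfkb1-/-, Bcl3-/- and Nfkbid-/- macrophages, each with its own wild type, and its title pairs p50, the product of Nfkb1, with IkBz, the product of Nfkbiz.

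Lipid A is the part of bacterial endotoxin that TLR4 senses, and TLR4 signalling sends NF-kB dimers into the nucleus, where they bind promoters and enhancers of inflammatory genes. IkBz (IkB-zeta) is an inducible nuclear member of the IkB family. It has no DNA-binding domain of its own, binds p50-containing dimers on chromatin, and is known as a coactivator of a subset of the genes that macrophages induce late, among them those for lipocalin-2 and IL-6.

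At 1 h, 29 genes were lower in Nfkbiz-/- macrophages and 7 were higher. The genes with the largest losses were Lrrc25, which encodes a leucine-rich repeat membrane protein of myeloid cells, and Adamts4, which encodes a secreted protease that cleaves aggrecan. Cebpd and Batf, which encode bZIP transcription factors, the chemokine gene Cxcl3 and the Fc receptor gamma chain gene Fcer1g were also among the lower genes. Tnfsf4, which encodes OX40 ligand, the adhesion molecule gene Vcam1 and Lfng, a glycosyltransferase gene of Notch signalling, were among the higher ones.

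To be called lower or higher, a gene needed a Benjamini-Hochberg adjusted p under 0.05 in limma and a difference of at least 2-fold on the log2(RPKM + 0.5) scale, which understates the change of genes at low levels. The lower genes were 0.951% and the higher genes 0.23% of those tested, together 1.18%. In all 36 called genes both Nfkbiz-/- libraries lay on one side of both wild-type libraries, but this was also so for 893 tested genes on the low side (29.3%) and 469 on the high side (15.4%). At an unadjusted p under 0.05, 63 genes were at least 2-fold lower and 10 at least 2-fold higher. Same-numbered libraries of the 2 genotypes deviated together, and with the replicate number as a block the counts were 47 lower and 8 higher, or 51 and 10 with a block at each time, with all 29 and 7 genes kept in both fits. Without Nfkbiz-/- replicate 1 the counts were 22 lower and 3 higher, without wild-type replicate 1 they were 14 and 3, and without wild-type replicate 2 they were 21 and 4. From the 4 libraries alone, with no spread shared over the other times, 1 gene was lower (Lrrc25) and 0 were higher.

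**Figure D1:**
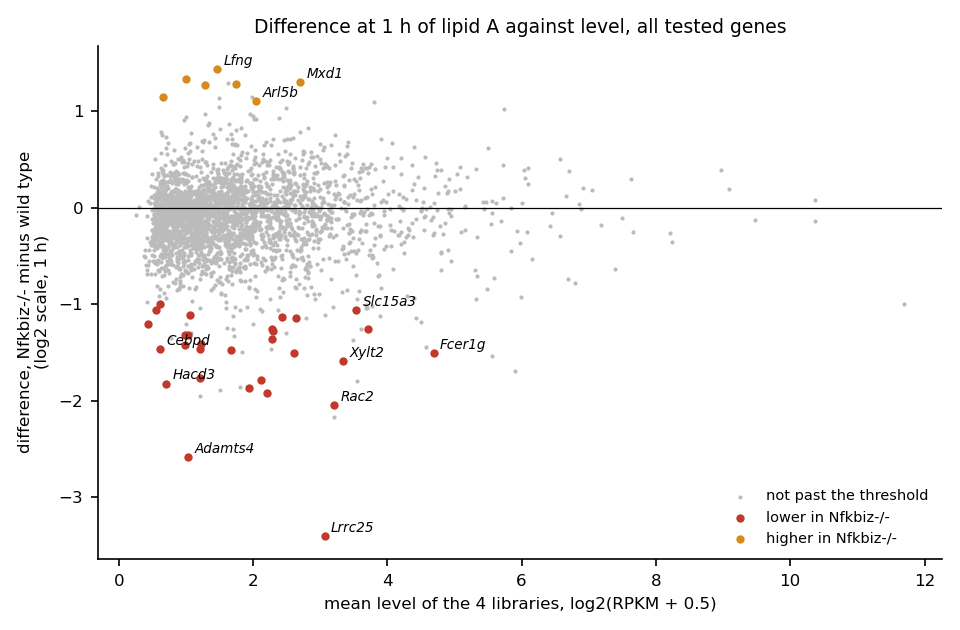
Each point is 1 of the 3049 tested genes, with the mean level of the 4 libraries on the x axis (log2 of RPKM + 0.5) and the difference, Nfkbiz-/- minus wild type, on the y axis (log2 scale). The 29 lower genes (red) reach down to -3.40 for Lrrc25 and the 7 higher genes (orange) reach 1.44 for Lfng.

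The 4 libraries held 24.8 to 29.6 M reads (M, 1e6), recovered from the steps between values. The Nfkbiz transcript itself was not analysed here, because it is not among the genes of the table, so the knockout rests on the labels. Of the macrophage marker list, 4 genes were tested and 0 passed the threshold. Csf1r, the receptor for M-CSF, had 5.31 and 7.52 RPKM in Nfkbiz-/- cells, against 4.67 and 4.90 RPKM in wild type. Lyz2 had 4.08 and 7.21 RPKM in Nfkbiz-/- cells, against 2.74 and 3.53 RPKM in wild type. The log2 differences were 0.37 for Csf1r, 0.72 for Lyz2, 0.13 for Mrc1 and -0.27 for Cd14, so the list was mixed. Of 38 markers of 6 other cell classes (neutrophils, dendritic cells, lymphocytes, mast cells, erythroid and stromal cells), 0 passed the filter and 32 stayed under 0.1 RPKM in every library. The neutrophil list, with the highest sums of these, summed to 0.536 and 0.500 RPKM in Nfkbiz-/- cells, against 0.558 and 0.479 RPKM in wild type. Rmrp, a short nuclear RNA, was at 991 and 4085 RPKM in the Nfkbiz-/- libraries, against 3449 and 4676 RPKM in the wild-type ones, so that Nfkbiz-/- replicate 1 was the lowest. The median difference of all tested genes was -0.07 at 1 h and -0.08 at 0 h. At 1 h it was -0.20 for the 763 genes with the shortest spans and 0.03 for the 762 with the longest, and at 0 h it was -0.21 and 0.01 for the same genes. The part of gene span in the calls was not tested. In the Nfkbid series, which serves for comparison, replicate 1 stood apart from the others in both genotypes. Its Malat1, a nuclear RNA, was at 16.6 RPKM in the Nfkbid-/- library and 8.14 RPKM in the wild-type one at 1 h, where the other 4 libraries of that series had 914 to 1325 RPKM. Fth1, in the opposite direction, was at 1968 and 1479 RPKM in the same 2 libraries and at 37.1 to 61.2 RPKM in the other 4. Results that use this replicate are given with and without it.

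Lrrc25 (chromosome 8, 73140742 to 73144749 of mm9) had 0.987 and 0.896 RPKM in Nfkbiz-/- macrophages, against 16.3 and 13.3 RPKM in wild type. Both knockout libraries lay far below both wild-type ones, and their mean was 6.36% of the wild-type mean. The difference was -3.40 ± 0.25 (SE, log2 scale, limma adjusted p = 1.31e-05), and Lrrc25 kept its call in each of the 15 alternative settings. In these bulk samples, fewer cells of a type and less RNA per cell cannot be told apart.

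Adamts4 (chromosome 1, 173180259 to 173192398) had 0.0607 and 0.0532 RPKM in Nfkbiz-/- macrophages, against 4.21 and 1.86 RPKM in wild type. Both knockout libraries were near the bottom of the scale, with 19 and 16 reads, where the wild-type libraries had 1491 and 668 reads. The difference was -2.58 ± 0.26 (SE, limma adjusted p = 2.69e-04), and the Nfkbiz-/- mean was 1.88% of the wild-type mean. Fcer1g, whose product carries the signalling motif of Fc receptors, lies 15779 bases away on the same chromosome. Fcer1g was at 10.9 and 15.4 RPKM in Nfkbiz-/- cells, against 37.6 and 37.5 RPKM in wild type, a difference of -1.505 ± 0.26 (limma adjusted p = 0.00801). The groups did not overlap, and the call of Fcer1g was lost without Nfkbiz-/- replicate 1 and without either wild-type library.

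The other called genes are described by what their products do, an order made after the values were seen, and no count is drawn from it. Genes of the actin cytoskeleton and its small GTPases come first. Rac2, the small GTPase of blood cells that the phagocyte oxidase needs, had 3.46 and 2.73 RPKM in Nfkbiz-/- cells, against 15.7 and 13.0 RPKM in wild type (-2.05 ± 0.28, limma adjusted p = 0.00184). Both knockout libraries lay below each of the 8 wild-type libraries of the other knockout series at 1 h too, which ran from 4.54 to 35.3 RPKM, or to 14.7 RPKM in the 7 other than Nfkbid replicate 1. Fgd3, which encodes a guanine nucleotide exchange factor of the family that acts on Cdc42, had 1.53 and 1.34 RPKM in Nfkbiz-/- cells, against 7.21 and 6.47 RPKM in wild type (-1.92 ± 0.24, limma adjusted p = 9.50e-04). Micall2, which encodes a Rab effector, was at 1.48 and 0.944 RPKM in Nfkbiz-/- cells, against 4.22 and 4.15 RPKM in wild type (-1.47 ± 0.23, limma adjusted p = 0.00352). Tesk1, whose product phosphorylates cofilin, was at 0.542 and 0.779 RPKM in Nfkbiz-/- cells and at 2.83 and 1.98 RPKM in wild type (-1.32 ± 0.23), and lost its call without replicate 1 of either genotype. In each of these the knockout libraries lay below the wild-type ones.

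**Figure D2:**
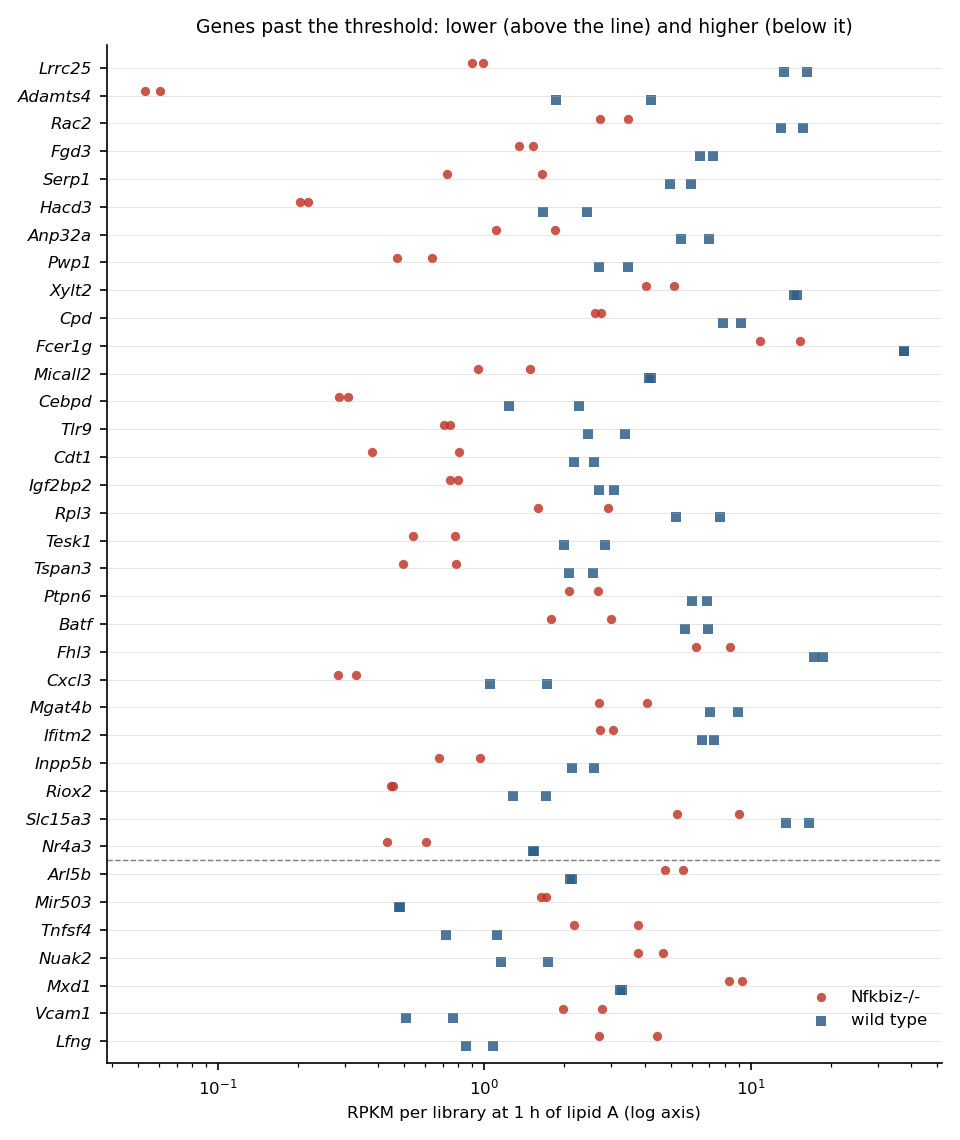
RPKM of the 36 called genes in each library at 1 h of lipid A, on a log axis, with Nfkbiz-/- libraries as red circles and wild-type libraries as blue squares. The 29 lower genes stand above the dashed line, ordered by difference from Lrrc25 down to Nr4a3, and the 7 higher genes stand below it. No gene has overlapping groups.

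Transcription factor genes were among the lower ones. Cebpd (chromosome 16, 15887378 to 15889638), whose product sustains the response of macrophages to endotoxin, was at 0.309 and 0.286 RPKM in Nfkbiz-/- cells, against 2.28 and 1.24 RPKM in wild type. The lower of the wild-type libraries was still clear of both knockout libraries, at 83 reads against 18 and 16. The difference was -1.46 ± 0.21 (limma adjusted p = 0.00266), and it kept its call without each library in turn. The span of Cebpd overlaps that of Spidr, so some of its reads may belong to that gene.

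Batf, an AP-1 family gene known for its part in lymphocyte and dendritic cell programmes, was at 2.99 and 1.79 RPKM in Nfkbiz-/- cells, against 6.94 and 5.66 RPKM in wild type (-1.26 ± 0.24, limma adjusted p = 0.0168). The groups were apart, but its call was lost without Nfkbiz-/- replicate 2 and without either wild-type library. Nr4a3, an orphan nuclear receptor gene induced early, was at 0.431 and 0.603 RPKM in Nfkbiz-/- cells, against 1.52 and 1.54 RPKM in wild type. Its difference of -1.002 ± 0.20 (limma adjusted p = 0.0259) was just past the 2-fold limit. Nr4a3 lost its call without Nfkbiz-/- replicate 1 and without either wild-type library.

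Lower genes of innate sensing and signalling included Tlr9 and Ptpn6. Tlr9, the endosomal receptor for microbial DNA, was at 0.743 and 0.707 RPKM in Nfkbiz-/- cells, against 3.37 and 2.44 RPKM in wild type (-1.46 ± 0.20, limma adjusted p = 0.00184). Ptpn6, which encodes the phosphatase SHP-1 that limits receptor signalling in blood cells, was at 2.67 and 2.08 RPKM in Nfkbiz-/- cells, against 6.83 and 6.04 RPKM in wild type (-1.28 ± 0.18, limma adjusted p = 0.00184). Ifitm2, a gene of the interferon-induced transmembrane family, was at 3.04 and 2.73 RPKM in Nfkbiz-/- cells, against 7.27 and 6.57 RPKM in wild type (-1.13 ± 0.13, limma adjusted p = 3.89e-04). These 3 genes kept their calls without each library in turn. Slc15a3, a lysosomal peptide transporter gene, was at 5.28 and 9.06 RPKM in Nfkbiz-/- cells and 13.6 and 16.6 RPKM in wild type, and its call was lost without Nfkbiz-/- replicate 1 and without either wild-type library. Its span overlaps that of Tmem132a, at -0.92 ± 0.21, named for that overlap.

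Products of the secretory pathway and of glycosylation follow. Xylt2, whose product starts glycosaminoglycan chains, was at 5.15 and 4.04 RPKM in Nfkbiz-/- cells, against 14.6 and 14.9 RPKM in wild type (-1.59 ± 0.24, limma adjusted p = 0.00304). Cpd, which encodes carboxypeptidase D of the trans-Golgi, was at 2.75 and 2.60 RPKM in Nfkbiz-/- cells, against 9.16 and 7.91 RPKM in wild type (-1.505 ± 0.23). Mgat4b, which adds a branch to N-glycans, was at 2.70 and 4.07 RPKM in Nfkbiz-/- cells, against 7.06 and 8.99 RPKM in wild type (-1.15 ± 0.24). Serp1, which encodes a small protein of the endoplasmic reticulum translocon, was at 0.723 and 1.65 RPKM in Nfkbiz-/- cells, against 5.95 and 4.96 RPKM in wild type (-1.87 ± 0.30). In all of them the highest knockout library lay below the lowest wild-type one. Xylt2 kept its call without each library in turn, Cpd lost it without wild-type replicate 1, Serp1 without replicate 1 of either genotype, and Mgat4b without Nfkbiz-/- replicate 1 and without either wild-type library.

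The remaining lower genes were Hacd3, of very long chain fatty acid synthesis (-1.82), Anp32a, of the acidic nuclear phosphoproteins (-1.79), Pwp1, of ribosome biogenesis (-1.76), Cdt1, of replication licensing (-1.42), Igf2bp2, an RNA-binding protein gene (-1.41), the ribosomal protein gene Rpl3 (-1.36), the tetraspanin gene Tspan3 (-1.31), the LIM-domain gene Fhl3 (-1.25), Inpp5b, of inositol phosphate metabolism (-1.11), and Riox2, a nucleolar oxygenase gene (-1.06). Hacd3 stood furthest down among them, at 0.218 and 0.203 RPKM in Nfkbiz-/- cells, against 2.42 and 1.66 RPKM in wild type. Hacd3, Pwp1, Igf2bp2 and Tspan3 kept their calls without each library in turn, and Fhl3 lost its call on leaving out any of the 4 libraries. Anp32a and Riox2 lost theirs without wild-type replicate 1, and Cdt1, Rpl3 and Inpp5b without Nfkbiz-/- replicate 1 and without either wild-type library. With values centred on each library's median, Nr4a3 (-0.91), Slc15a3 (-0.97) and Riox2 (-0.97) were short of 2-fold. Of the 29 lower genes, 14 kept their calls without each library in turn. The filter let 118 genes in through the wild-type libraries alone, and 14 of the lower genes were among them. They include Lrrc25, Adamts4, Cebpd, Cxcl3 and Nr4a3, and the filter itself favoured a lower value for all 14.

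Among the higher genes, Mxd1, whose product antagonizes Myc, was at 9.27 and 8.31 RPKM in Nfkbiz-/- cells, against 3.22 and 3.28 RPKM in wild type (1.31 ± 0.19, limma adjusted p = 0.00251). Arl5b, a small GTPase gene of the Golgi, was at 4.75 and 5.57 RPKM in Nfkbiz-/- cells, against 2.10 and 2.14 RPKM in wild type (1.11 ± 0.17, limma adjusted p = 0.00352). In both genes each genotype's libraries lay close together, and both kept their calls without each library in turn. Mir503 also passed, but on 3 and 3 reads in Nfkbiz-/- cells against at most 1 and 1 in wild type, since the table gives 0 and 1 read the same value, and no fold is given for it.

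Tnfsf4 (chromosome 1, 163325568 to 163348337) was at 3.78 and 2.17 RPKM in Nfkbiz-/- cells, against 1.12 and 0.716 RPKM in wild type (1.27 ± 0.29, limma adjusted p = 0.0424). Vcam1 was at 2.78 and 1.97 RPKM in Nfkbiz-/- cells, against 0.762 and 0.509 RPKM in wild type (1.33 ± 0.29, limma adjusted p = 0.0364). Lfng was at 4.44 and 2.69 RPKM in Nfkbiz-/- cells, against 1.08 and 0.853 RPKM in wild type (1.44 ± 0.28, limma adjusted p = 0.0176). In these 3 genes replicate 1 was above replicate 2 in both genotypes, and the groups did not overlap. The filter let 21 genes in through the Nfkbiz-/- libraries alone, and Vcam1 and Mir503, 2 of the 7 higher genes, were among them, so it favoured a higher value for both. Nuak2, an AMPK-related kinase gene, was at 4.67 and 3.79 RPKM in Nfkbiz-/- cells, against 1.74 and 1.16 RPKM in wild type (1.29 ± 0.27, limma adjusted p = 0.0268). Nuak2 and Vcam1 lost their calls on leaving out any of the 4 libraries, and Tnfsf4 and Lfng without Nfkbiz-/- replicate 1 and without either wild-type library.

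The members of gene lists drawn for the NF-kB response were then counted. Of all tested genes 0.951% were lower and 0.23% higher. With lists this short, 1 call is not read as a result about a list. Of the genes earlier described as IkBz targets, 7 were in the table, and Lcn2, Csf3 and Edn1 did not pass the filter at 1 h. Of the 4 tested, 1 was lower (Cebpd). Cebpd and Csf2 passed the filter through the wild-type libraries alone, which set the side they lay on, so the direction of the list as a whole is not read from its median of -1.23 (all tested genes, -0.07). Ebi3, a subunit of IL-27, was at 7.43 and 5.67 RPKM in Nfkbiz-/- cells, against 21.1 and 12.5 RPKM in wild type (-1.26 ± 0.33, limma adjusted p = 0.0797). Csf2, which encodes GM-CSF, was at 0.590 and 0.828 RPKM in Nfkbiz-/- cells, against 2.69 and 1.90 RPKM in wild type (-1.20 ± 0.29, limma adjusted p = 0.0547). Neither passed the threshold, and both did so with the replicate block, at limma adjusted p = 0.0138 for Ebi3 and 0.0317 for Csf2. Lcn2 was at 0.0875 and 0.104 RPKM in Nfkbiz-/- cells and 0.177 and 0.0981 RPKM in wild type, where the groups overlapped.

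None of the 13 tested primary response genes of NF-kB passed, with 11 below 0 (61.0% of all tested genes were) and a median of -0.74. At the low end, Ccl3 was at 18.5 and 39.5 RPKM in Nfkbiz-/- cells, against 92.6 and 85.4 RPKM in wild type (-1.70 ± 0.40, limma adjusted p = 0.0516). Ptgs2, which encodes the inducible cyclooxygenase, was at 1.59 and 1.08 RPKM in Nfkbiz-/- cells, against 5.99 and 3.55 RPKM in wild type (-1.497 ± 0.37, limma adjusted p = 0.0633). Il1b was at 20.1 and 6.32 RPKM in Nfkbiz-/- cells, against 45.0 and 22.2 RPKM in wild type (-1.44 ± 0.65, limma adjusted p = 0.329). Replicate 1 of Il1b lay well above replicate 2 in both genotypes. With the replicate block 3 of the 13 were lower, Ccl3, Ptgs2 and Cxcl1, and with a block at each time Il1b was lower too, which makes 4.

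None of the 5 tested NF-kB and IkB family genes passed, with a median of -0.29. Rel, which encodes the subunit c-Rel, was at 8.02 and 7.99 RPKM in Nfkbiz-/- cells, against 17.9 and 15.4 RPKM in wild type (-1.01 ± 0.24, limma adjusted p = 0.0512), and was lower with the replicate block (limma adjusted p = 0.0268). Nfkb1 itself was at 22.7 and 20.9 RPKM in Nfkbiz-/- cells and 22.7 and 22.0 RPKM in wild type (-0.03 ± 0.25). Rela, at -0.24 ± 0.19, Bcl3, at -0.49 ± 0.33, and Nfkbia, which encodes the feedback inhibitor IkBa, at -0.29 ± 0.21, did not pass. The 10 tested genes of TLR4 signalling had a median of -0.01 and 0 passed.

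Of 12 tested chemokine genes, 1 passed, where 1.18% of all tested genes did. In this list 11 were below 0, as were 61.0% of all tested genes, with a median of -0.59. Cxcl3 (chromosome 5, 91215126 to 91217119 of mm9), which encodes a neutrophil attractant, was at 0.331 and 0.283 RPKM in Nfkbiz-/- cells, against 1.72 and 1.05 RPKM in wild type. These values rest on 17 and 14 reads in Nfkbiz-/- cells and 100 and 62 in wild type. Cxcl3 passed the filter through the wild-type libraries alone, which set its side. The groups did not overlap, and the difference was -1.20 ± 0.22 (limma adjusted p = 0.0138), but the call was lost without either Nfkbiz-/- library and without wild-type replicate 1. Cxcl1 was at 9.31 and 18.2 RPKM in Nfkbiz-/- cells, against 30.7 and 29.9 RPKM in wild type (-1.19 ± 0.47, limma adjusted p = 0.262). With the replicate block Ccl3 and Cxcl1 passed too, making 3. Cxcl2 (-0.45 ± 0.70), Ccl2 (-0.78 ± 0.53), Ccl4 (-0.74 ± 0.40), Ccl7 (-0.92 ± 0.47), Cxcl10 (-0.36 ± 0.29), Ccl5 (-0.19 ± 0.42), Ccl22 (-0.12 ± 0.67), Ccl9 (-0.02 ± 0.22) and Ccl12 (0.17 ± 0.28) did not pass.

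**Figure D3:**
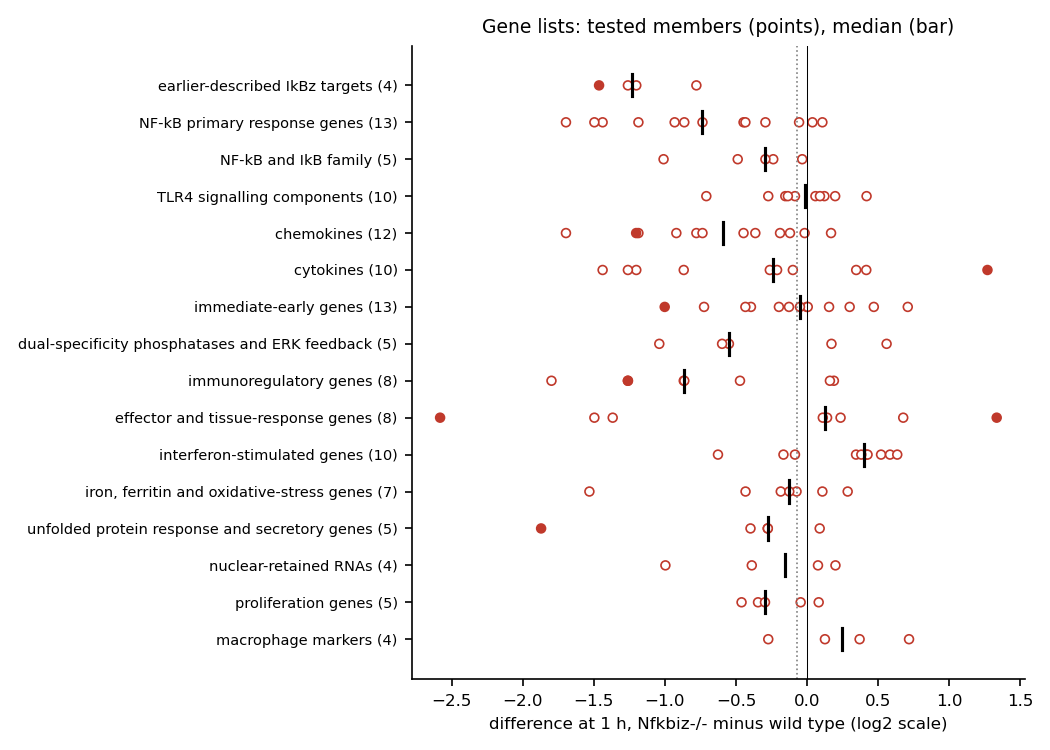
Difference at 1 h (log2 scale, Nfkbiz-/- minus wild type) of the tested members of each gene list, with the number tested in brackets; filled points passed the threshold, the bar is the list's median and the dotted line is the median of all tested genes, -0.07. The list medians run down to -1.23 for the earlier-described IkBz targets, where 2 of the 4 genes, Cebpd and Csf2, passed the filter through wild type alone, and up to 0.40 for the interferon-stimulated genes.

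Among 10 tested cytokine genes 1 was higher (Tnfsf4) and 0 were lower, beside 0.23% and 0.951% of all tested genes, with a median of -0.24. The anti-inflammatory cytokine gene Il10 was at 2.83 and 2.01 RPKM in Nfkbiz-/- cells, against 6.10 and 3.71 RPKM in wild type (-0.87 ± 0.25, limma adjusted p = 0.109). With the replicate block Csf2 and Ebi3 were lower, and Il1b too with a block at each time. Csf2 had passed the filter through wild type alone. Of 8 immunoregulatory genes 1 was lower (Batf), beside 0.951% of all tested genes, with a median of -0.87. Il4i1, which encodes an amino acid oxidase, was at 6.15 and 2.82 RPKM in Nfkbiz-/- cells, against 26.2 and 9.52 RPKM in wild type (-1.80 ± 0.68, limma adjusted p = 0.236). Its replicate 1 was above replicate 2 in both genotypes, and with the replicate block Il4i1 and Ebi3 were lower too.

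Of 8 effector and tissue-response genes 1 was lower (Adamts4) and 1 higher (Vcam1), with a median of 0.13. Of all tested genes 0.951% were lower and 0.23% higher. Adamts4 passed the filter through wild type alone and Vcam1 through Nfkbiz-/- alone, which set the side they lay on. The complement gene C3 was at 5.41 and 6.12 RPKM in Nfkbiz-/- cells, against 16.8 and 14.6 RPKM in wild type (-1.37 ± 0.35, limma adjusted p = 0.0696), and C3 and Ptgs2 were lower with the replicate block. Immediate-early genes had a median of -0.05 over 13 tested, and 1 passed, Nr4a3 (1.18% of all tested genes passed). Nr4a3 entered through the wild-type libraries alone, which set its side. Of 5 dual-specificity phosphatase and ERK feedback genes 0 passed, with a median of -0.55, and Dusp2 did so with the replicate block (-1.04 ± 0.33, limma adjusted p = 0.160 without it). Interferon-stimulated genes were the list with the highest median, 0.40, with 3 of 10 below 0 (61.0% of all tested genes were) and 0 past the threshold. Ifit1 was at 17.9 and 18.7 RPKM in Nfkbiz-/- cells, against 12.3 and 12.9 RPKM in wild type (0.52 ± 0.22, limma adjusted p = 0.284), where the groups did not overlap. Usp18, of the same list, went the other way without overlap. It was at 2.20 and 2.61 RPKM in Nfkbiz-/- cells, against 3.99 and 3.96 RPKM in wild type (-0.63 ± 0.19, limma adjusted p = 0.124).

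Of 7 iron and oxidative-stress genes 0 passed, with a median of -0.12. Fth1, the ferritin heavy chain gene, was at 15.4 and 34.7 RPKM in Nfkbiz-/- cells, against 65.1 and 70.8 RPKM in wild type (-1.53 ± 0.48, limma adjusted p = 0.144), and was lower with the replicate block. Serp1 was the 1 lower gene of 5 of the unfolded protein response, whose median was -0.28 (0.951% of all tested genes were lower). Of 5 proliferation genes (median -0.30) and 4 nuclear-retained RNAs (-0.16), 0 passed.

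NF-kB sites were looked up in RefSeq promoters (GRCm38.p6, 250 bases before to 50 bases after the start), using the kappa-B consensus GGGRNWYYCC on both strands. In it R is A or G, W is A or T, Y is C or T and N is any base. A match was present in 4.35% of all 27025 promoters and in 5.30% of the 2114 promoters of tested genes. Among called genes with a promoter in the table, it was present in 2 of 22 lower genes, Cxcl3 and Cpd, and in 1 of 3 higher genes, Arl5b. The promoters of these 3 genes are shown, since they place the match beside genes that moved in both directions. Capitals mark the match, which in Cxcl3 begins 73 bases before the start, with an overlapping match on the other strand, in Cpd 122 and in Arl5b 227 bases before it. In Cpd and Arl5b the consensus reads on the strand opposite to the one printed. The windows are chr5:90785851-90786150 on the plus strand for Cxcl3, chr11:76846959-76847258 on the minus strand for Cpd, and chr2:15055070-15055369 on the plus strand for Arl5b.
Cxcl3: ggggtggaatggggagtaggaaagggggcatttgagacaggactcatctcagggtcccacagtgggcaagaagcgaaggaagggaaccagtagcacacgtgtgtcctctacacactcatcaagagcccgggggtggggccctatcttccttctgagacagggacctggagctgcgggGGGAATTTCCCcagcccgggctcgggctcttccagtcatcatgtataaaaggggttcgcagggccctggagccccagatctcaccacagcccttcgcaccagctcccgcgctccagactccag
Cpd: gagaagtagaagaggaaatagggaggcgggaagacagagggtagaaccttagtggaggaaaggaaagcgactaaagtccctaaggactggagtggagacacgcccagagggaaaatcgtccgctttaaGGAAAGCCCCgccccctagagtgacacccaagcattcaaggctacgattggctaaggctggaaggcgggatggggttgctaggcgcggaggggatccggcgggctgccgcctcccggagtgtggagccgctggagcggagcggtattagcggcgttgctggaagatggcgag
Arl5b: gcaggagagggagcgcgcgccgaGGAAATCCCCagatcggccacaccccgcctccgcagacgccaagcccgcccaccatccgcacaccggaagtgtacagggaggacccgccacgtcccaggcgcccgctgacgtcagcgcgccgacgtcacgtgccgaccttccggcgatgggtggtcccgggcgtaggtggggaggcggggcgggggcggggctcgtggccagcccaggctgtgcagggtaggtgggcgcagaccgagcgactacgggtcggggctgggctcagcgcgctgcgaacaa

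The difference at 1 h was next set beside that of the other times of the same course. At 0 h and 0.5 h, 0 genes passed in either direction (at an unadjusted p under 0.05 and 2-fold, 16 lower and 5 higher at 0 h and 10 and 1 at 0.5 h). Lower genes were 48 at 2 h (1.57%) and 112 at 6 h (3.67%), and higher genes 7 at 2 h (0.23%) and 53 at 6 h (1.74%). Of the 29 genes lower at 1 h, 15 were lower at 2 h, 9 at 6 h and 8 at both, and 13 were called at neither. Their median difference over the course was -0.10 (0 h), -0.29 (0.5 h), -1.43 (1 h), -1.22 (2 h) and -0.76 (6 h). The 29 genes were chosen by their values at 1 h, and 14 of them passed the filter through wild type alone. A larger difference at 1 h is thus partly built in and is not read as a peak. All 29 were below 0 at 2 h, as were 63.4% of all tested genes.

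Lrrc25, Serp1, Xylt2, Cpd, Micall2, Cebpd, Batf and Riox2 were lower at 1, 2 and 6 h. Lrrc25 had 4.81 and 5.52 RPKM in Nfkbiz-/- cells at 0 h, against 6.63 and 6.00 RPKM in wild type, and at 2 h it had 0.182 and 0.221 RPKM in Nfkbiz-/- cells, against 9.11 and 8.45 RPKM in wild type. The genotypes were thus close before lipid A and apart at 2 h. Batf was at 0.871 and 0.591 RPKM in Nfkbiz-/- cells at 2 h, against 5.96 and 4.84 RPKM in wild type, so its groups did not overlap there either. The difference at 1 h minus that at 2 h was 1.004 ± 0.34 for Batf and did not pass (limma adjusted p = 0.911). Adamts4 was lower at 1 h and 2 h and not at 6 h, when it averaged 0.0889 RPKM in Nfkbiz-/- cells and 0.158 RPKM in wild type. Fgd3 passed at 1 h and at no other time, with 4.68 and 4.28 RPKM in Nfkbiz-/- cells at 0 h and 4.82 and 3.72 RPKM in wild type, and -0.80 at 2 h (limma adjusted p = 0.0872). At 6 h its difference of -0.93 (limma adjusted p = 0.02) was short only of the 2-fold limit. Fgd3 was then at 0.393 and 0.275 RPKM in Nfkbiz-/- cells, against 1.67 and 0.652 RPKM in wild type, without overlap. The difference of Fgd3 at 1 h was not past the threshold against that at 2 h (-1.12 ± 0.34, limma adjusted p = 0.784).

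Of the 7 higher genes, Tnfsf4, Vcam1 and Arl5b were higher at 2 h, and Tnfsf4, Vcam1 and Lfng at 6 h. Tnfsf4 had 6.08 and 6.70 RPKM in Nfkbiz-/- cells at 2 h, against 0.845 and 0.708 RPKM in wild type. At 0 h it was at 0.0304 and 0.0294 RPKM in Nfkbiz-/- cells and 0.0353 and 0.0274 RPKM in wild type, near the lowest values of the table. The median difference of the 7 genes over the course was 0.06 (0 h), 0.12 (0.5 h), 1.29 (1 h), 0.81 (2 h) and 0.82 (6 h). They too were chosen by their values at 1 h, so the 1 h median is not read as a peak.

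**Figure D4:**
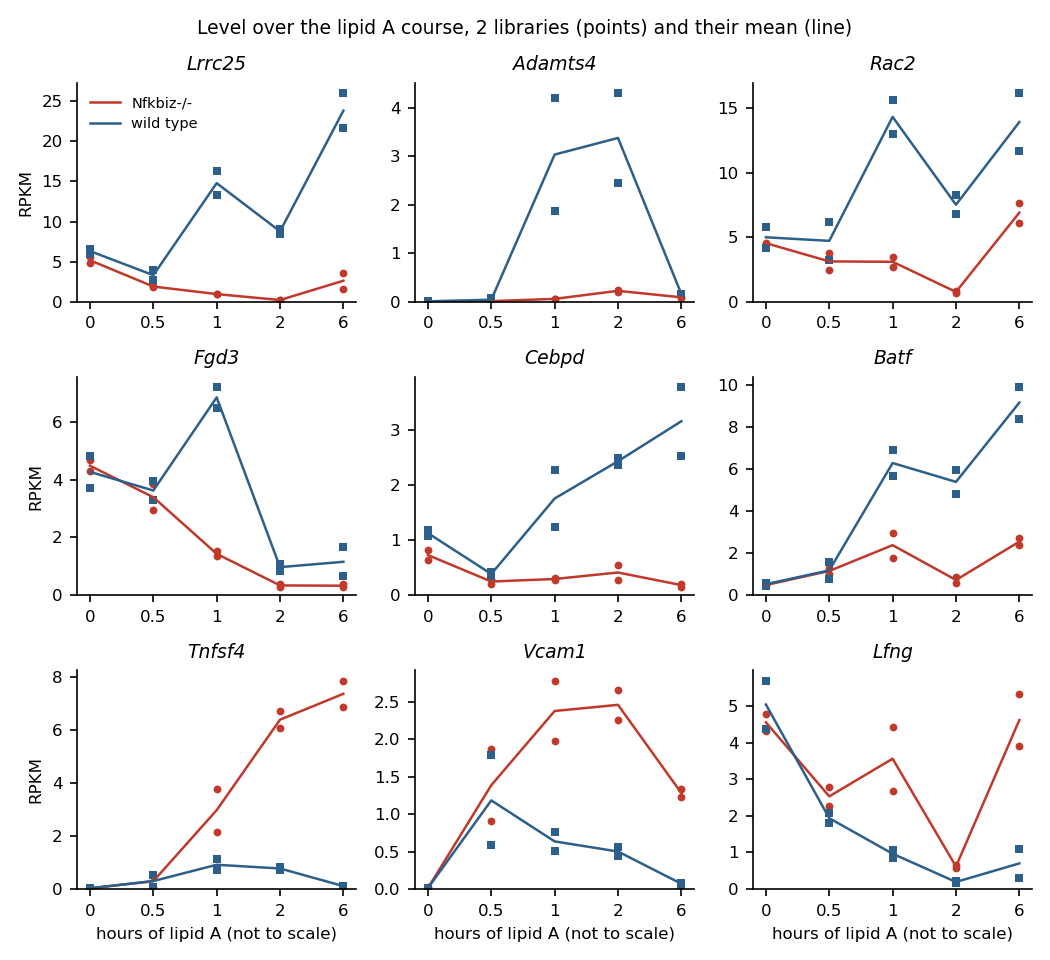
RPKM of 9 genes over the lipid A course in Nfkbiz-/- (red) and wild-type (blue) macrophages, with points for the 2 libraries and lines for their mean; hours are evenly spaced and not to scale. No gene passed the threshold at 0 h, where Cebpd averaged 0.732 RPKM in Nfkbiz-/- cells and 1.13 RPKM in wild type, without overlap. All 9 genes were chosen as called at 1 h, when Lrrc25 averaged 0.941 RPKM in Nfkbiz-/- cells and 14.8 RPKM in wild type.

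Whether the difference changed between 0 h and 1 h was tested as the difference at 1 h minus that at 0 h. It passed for 6 genes (0.197% of those tested), all of them lower at 1 h: Lrrc25, Adamts4, Fgd3, Pwp1, Igf2bp2 and Ifitm2. Of these, Lrrc25, Adamts4, Pwp1 and Igf2bp2 had passed the filter at 1 h through wild type alone. That set their side at 1 h and favoured a change from 0 h. At an unadjusted p under 0.05 and 2-fold, 71 genes passed, and the replicate block gave 21 genes, or 35 with a block at each time. On leaving out 1 library of 1 h, 1 gene passed without either Nfkbiz-/- library and 2 without either wild-type library, and with the values centred on each library's median 11 passed.

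Against 2 h, the difference at 1 h differed for 2 genes (0.0656%), neither of them called at 1 h: Dusp1, which encodes a phosphatase that switches off MAP kinases, and Rnf149, a ubiquitin ligase gene, both named after their values were seen. Dusp1 was at 26.1 and 22.0 RPKM in Nfkbiz-/- cells at 1 h, against 46.9 and 26.6 RPKM in wild type, a difference of -0.55 ± 0.29 (limma adjusted p = 0.410). At 2 h Dusp1 was at 0.567 and 0.460 RPKM in Nfkbiz-/- cells, against 19.8 and 15.0 RPKM in wild type. The nearest libraries of the genotypes almost met at 1 h and were far apart at 2 h, and the difference between the times was 3.58 ± 0.41 (limma adjusted p = 0.00232). On leaving out 1 library of 1 h, 1 gene passed without Nfkbiz-/- replicate 1 and without either wild-type library, and 39 genes passed at an unadjusted p under 0.05 and 2-fold. The replicate block gave 4 genes, and 12 with a block at each time.

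Macrophages labelled Nfkb1-/- at 1 h, with 3 libraries per genotype and none shared with the Nfkbiz series, had 32 lower genes (1.05%) and 0 higher among the same genes. Replicate 1 of that series held 11.7 M reads in Nfkb1-/- cells and 10.7 M in wild type at 1 h, where the other libraries held 25.8 to 32.4 M. Its RPKM sums were also the highest of that series at 1 h, and results without this replicate are not given. Of the 29 genes lower in Nfkbiz-/- cells, 24 were below 0 in Nfkb1-/- cells (82.8%, beside 50.6% of all tested genes), with a median of -0.81 beside -0.01. Both thresholds were passed by 7 genes: Adamts4, Rac2, Fcer1g, Micall2, Tspan3, Fhl3 and Mgat4b, which is 7 of 29 Nfkbiz genes and 7 of 32 Nfkb1 genes. Nfkb1 RNA itself was not lower past the threshold in them (-0.13, limma adjusted p = 0.999), so this genotype too rests on the label. Rac2 was at 0.472, 1.09 and 1.26 RPKM in Nfkb1-/- cells, against 4.54, 11.9 and 7.21 RPKM in their wild type (-2.49, limma adjusted p = 1.32e-04). Fcer1g was at 4.18, 8.02 and 4.22 RPKM in Nfkb1-/- cells, against 24.8, 32.5 and 22.4 RPKM in their wild type (-2.22). No Nfkb1-/- library reached the wild-type range in either gene.

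The difference in Nfkbiz-/- cells differed from that in Nfkb1-/- cells for 10 genes (0.328%), 84 at an unadjusted p under 0.05 and 2-fold. Among the called genes they were Lrrc25, Xylt2, Lfng, Tnfsf4 and Nuak2. Lrrc25 had passed the filter through the wild-type libraries of the Nfkbiz series alone, which set its side there. Xylt2 was at 14.1, 23.6 and 12.9 RPKM in Nfkb1-/- cells, against 7.91, 11.3 and 8.46 RPKM in their wild type. All 3 knockout libraries lay above the wild type there, but that difference of 0.80 did not pass (limma adjusted p = 0.290). Both Nfkbiz-/- libraries lay below their own wild type (difference of the differences -2.39 ± 0.39, limma adjusted p = 7.68e-04). Tnfsf4 lay below wild type there, at 0.353, 0.458 and 0.251 RPKM in Nfkb1-/- cells, against 1.62, 0.961 and 1.06 RPKM in their wild type (difference of the differences 2.26 ± 0.30, limma adjusted p = 1.76e-05). On leaving out 1 library of the Nfkbiz series at 1 h, 4 genes passed without Nfkbiz-/- replicate 1 and 3 without each of the others, while the replicate block gave 42, a block at each time 107 and centred values 24. Of the 7 genes higher in Nfkbiz-/- cells, 1 was above 0 in Nfkb1-/- cells, Mir503, which rests on few reads. Of all tested genes 50.6% were below 0 there. The median of the 7 genes was -0.52, beside -0.01 for all tested genes, and no direction is read from so few genes. The median residual standard deviation was 0.21 in the Nfkbiz series and 0.41 in the Nfkb1 series.

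In macrophages labelled Bcl3-/-, whose Bcl3 RNA was not lower (0.24), and Nfkbid-/- at 1 h, 0 of the 3049 genes passed in limma (at an unadjusted p under 0.05 and 2-fold, 0 lower and 2 higher, and 0 lower and 1 higher). The 29 genes lower in Nfkbiz-/- cells had a median difference of 0.00 in Bcl3-/- cells, from -0.29 to 0.62, and of 0.05 in Nfkbid-/- cells, from -0.47 to 0.52. Without Nfkbid replicate 1, again 0 genes passed (by the unadjusted p, 2 were lower and 6 higher by at least 2-fold), and the 29 genes had a median of 0.12, from -0.14 to 0.34. The residual spread of these series was larger, with a median standard deviation of 0.35 for Bcl3 and 0.80 for Nfkbid, or 0.36 without replicate 1, and the differences between them and the Nfkbiz series were not tested.

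**Figure D5:**
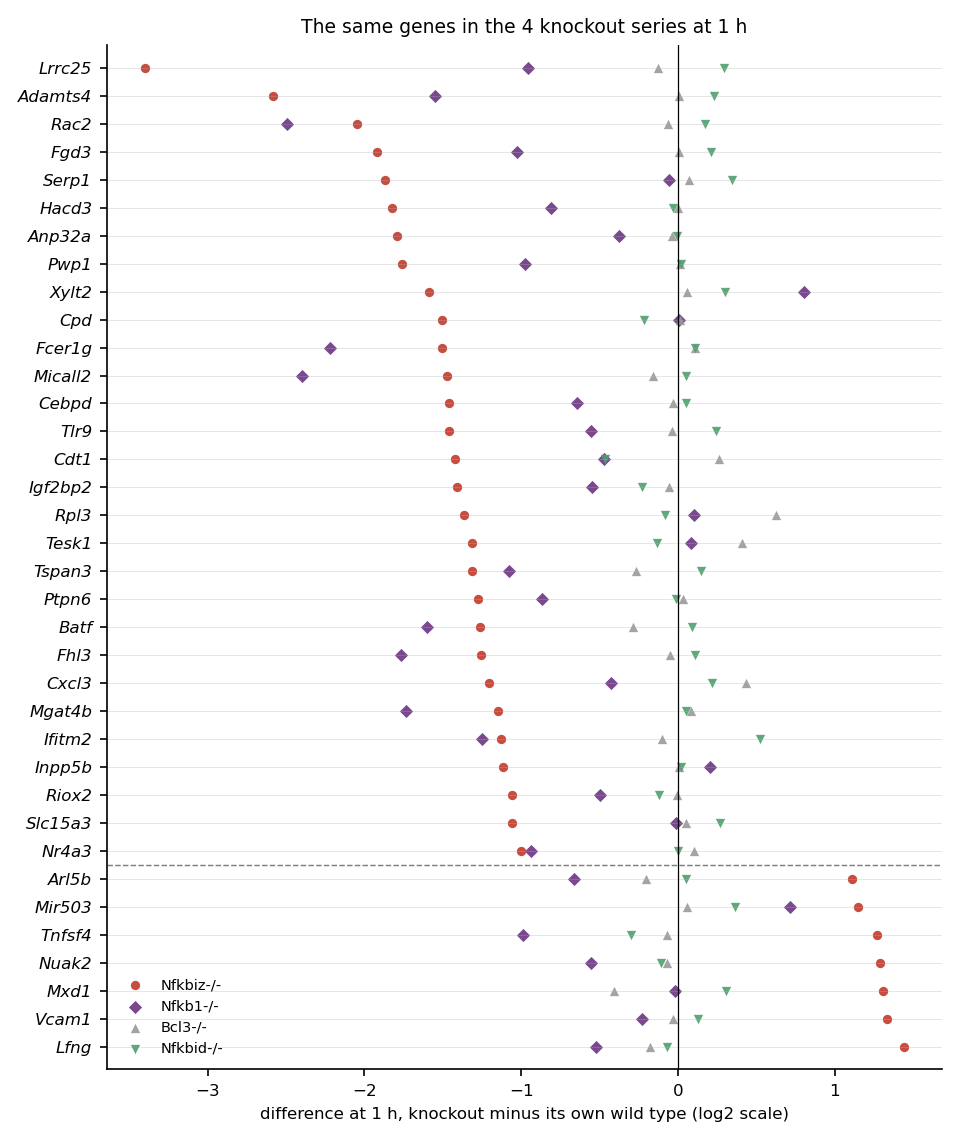
Difference at 1 h (log2 scale, each knockout minus its own wild type) of the 36 called genes in Nfkbiz-/-, Nfkb1-/-, Bcl3-/- and Nfkbid-/- macrophages. Nfkb1-/- values (diamonds) lie below 0 for 24 of the 29 lower genes and above 0 for 1 of the 7 higher genes (Mir503). Of all tested genes 50.6% lie below 0 in Nfkb1-/- cells. Bcl3-/- values stay between -0.41 and 0.62.

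The wild-type response of the called genes was read from the other 3 series, whose 8 wild-type libraries at 1 h are not libraries of the Nfkbiz series. Of the 29 lower genes, 9 were at least 2-fold above 0 h, as were 9.81% of all tested genes, and 1 (Rpl3) was at least 2-fold below, as were 11.4%. The median response of the lower genes was 0.68 (log2), beside -0.17 for all tested genes. Cpd, Adamts4 and Batf had the largest responses, at 2.43, 2.24 and 2.23, and Ptpn6 and Tesk1 were below 0, at -0.71 and -0.72. Without Nfkbid replicate 1, 11 of the 29 were at least 2-fold above 0 h (10.7% of all tested genes) and 1 at least 2-fold below (13.6%), and their median response was 0.77 beside -0.20. Of the 7 higher genes 3 were at least 2-fold above 0 h and 1, Lfng, was at least 2-fold below, at -2.21, with the same counts without that replicate. Both Nfkbiz-/- libraries lay below all 10 wild-type libraries of 1 h for 16 of the 29 lower genes (1.05% of all tested genes), Lrrc25, Adamts4, Rac2, Fgd3, Serp1 and Cebpd among them, and above all 10 for 5 of the 7 higher genes (3.08%). Over the 9 wild-type libraries other than Nfkbid replicate 1, these counts were 17 of the 29 (1.31%) and 6 of the 7 (5.21%). The called genes were chosen by these same Nfkbiz-/- libraries, against wild-type libraries that are counted here too. An excess over the share of all tested genes is therefore built in and is not read as support. Lrrc25, Adamts4 and Cebpd also passed the filter through wild type alone, and Vcam1 and Mir503 through Nfkbiz-/- alone.

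Neighbours of the lower genes were examined within 50 kb. Of 40 tested neighbours that did not pass, 37 were below 0, with a median of -0.53, beside 61.0% and -0.07 for all tested genes. The 40 include Mir698, Snord43, Snord83b, Tmem132a, Crybg3 and Eif2a, whose spans overlap a called gene. Their differences ran from -1.46 to -0.44. They may share reads with the called genes, so part of the excess may be built in, which was not tested. Called genes lay near each other in 2 pairs, Adamts4 with Fcer1g and Fhl3 with Inpp5b, which are 33238 bases apart on chromosome 4. Near Adamts4 and Fcer1g, B4galt3, Tomm40l, Ppox and Usp21 had differences from -0.54 to -0.66 and did not pass. The spans of 6 called genes overlap another gene of the table, and the rule for reads in such stretches is not given in the sources used here.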

How the data were processed

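The authors deposited 1 table of RPKM values for 15196 genes of mm9, and the submitters' processing notes name HISAT2 and SAMtools, whose versions, like the counting rule, are not given in the sources used here. Tests on the deposited values showed them to be scaled over the gene span, with 100% of values worth at most 30 reads within 0.02 of a whole number. Values were taken as log2(RPKM + 0.5) and 1 model was fitted by lmFit and eBayes with trend (limma 3.58.1, R 4.3.3), with 1 mean per genotype and time over the 20 libraries of the Nfkbiz series, which share 1 estimate of the spread. Genes were tested at a minimum of 1 RPKM in 2 of the 4 libraries, and passed at a Benjamini-Hochberg adjusted p under 0.05 and at least 2-fold. The contrast with Nfkb1-/- used both series. On simulated data the fit was tested as a step of the workflow. Same-numbered libraries deviated together (residual correlations 0.48, 0.74, 0.50, 0.43 and 0.55 at 0, 0.5, 1, 2 and 6 h), from the data and not from the labels, so the number was also fitted as a block. No 2 replicates held identical values. The genes named were every called gene, every tested member of the IkBz target, NF-kB family and chemokine lists and up to 4 of each other list. The members and lists were chosen with earlier results of these data known. Alternatives are in the closing section, and voom on recovered reads and leaving out Nfkbid replicate 1 were added after seeing the data. Promoters came from RefSeq.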

Additional observations from a re-analysis of the deposited data

Results flagged for a closer look

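The difference between Nfkbiz-/- and wild-type cells at 1 h differed from that at 0 h, by a limma contrast, for Lrrc25 (-3.13 ± 0.35, SE, log2 scale), Adamts4 (-2.59 ± 0.37), Fgd3 (-1.995 ± 0.34), Pwp1 (-1.61 ± 0.27), Igf2bp2 (-1.496 ± 0.25) and Ifitm2 (-1.08 ± 0.18), at adjusted p from 0.00211 to 0.0236. It differed from that at 2 h for Dusp1 (3.58 ± 0.41) and Rnf149 (1.64 ± 0.23, adjusted p = 0.0116). Of the genes that differed from 0 h, Lrrc25, Adamts4, Pwp1 and Igf2bp2 passed the filter through wild type alone, which set their side at 1 h.

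The difference at 1 h differed between Nfkbiz-/- and Nfkb1-/- cells for Lrrc25 (-2.45 ± 0.58) and Xylt2 (-2.39 ± 0.39), which were lower in Nfkbiz-/- cells, and for Tnfsf4 (2.26 ± 0.30), Lfng (1.96 ± 0.37) and Nuak2 (1.84 ± 0.43), which were higher in them. It also differed for Gpr132 (2.46 ± 0.53), Kdm6b (1.76 ± 0.36), Stat6 (1.54 ± 0.33), Tmem63b (1.52 ± 0.29) and Pip5k1a (1.28 ± 0.29), of which the first 4 passed as lower in Nfkb1-/- cells and none passed in Nfkbiz-/- cells.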

How the results depend on the processing

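Of the 523 values that the called genes have under the alternatives, 398 kept their call and 0 reversed direction. The counts of lower and higher genes at 1 h were 29 and 7. They were 19 and 4 with a filter at 3 RPKM, 21 and 3 with no filter, 1 and 0 from the compared libraries alone, 47 and 8 with the replicate block and 51 and 10 with a replicate block at each time, and without a minimum fold 12 were higher. Leaving out 1 library gave 14 to 34 lower and 3 to 8 higher genes. The difference from 0 h passed for 6 genes, and for 11 with centred values, 3 with a filter at 3 RPKM or with no filter, 1 from the compared libraries alone, 21 and 35 with the 2 replicate blocks, 2 with voom on recovered reads, and 1 to 2 on leaving out 1 library. The difference from 2 h passed for 2 genes, for 4 with the filter over all 20 libraries, 0 from the compared libraries alone, 4 and 12 with the replicate blocks, 4 with voom and 1 to 2 on leaving out 1 library. The difference from Nfkb1-/- passed for 10 genes, for 24 with centred values, 0 from the compared libraries alone, 42 and 107 with the replicate blocks and 3 to 4 on leaving out 1 library. Why these counts moved was not tested, except that fewer libraries leave fewer residual degrees of freedom. Voom was not run for the contrast with Nfkb1-/-. Depth limits Cebpd, Cxcl3 and Adamts4, with under 20 reads in each Nfkbiz-/- library, and Mir503.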
